A study of Saccharomyces cerevisiae with 32 samples.

Results

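Transcript levels of 8 genes of the yeast glucose-sensing and glucose-repression pathways were followed in Saccharomyces cerevisiae, out of 6717 genes in the deposited expression table. The 8 genes were taken by their systematic identifiers: SNF3 (YDL194W), RGT2 (YDL138W), STD1 (YOR047C), MTH1 (YDR277C), RGT1 (YKL038W), MIG1 (YGL035C), MIG2 (YGL209W) and MIG3 (YER028C). Wild type (WT, strain DBY12000) was compared with a tps1 mutant (strain DBY12383). TPS1 encodes trehalose-6-phosphate synthase, and yeast lacking it is known for failing to grow when a rapidly fermented sugar is added. All cultures, of both strains, were grown to log phase in minimal medium with 2% galactose. Glucose or fructose was then added to 2%, and RNA was sampled at 0, 3, 5, 10, 15, 30, 60 and 120 min, giving 32 libraries with 1 library for each strain, sugar and time. The galactose group of each strain held 2 libraries, the 0 min samples of its glucose and fructose courses, and the labels do not say whether these were separate cultures. The 3, 5, 10 and 15 min libraries of a course formed its early group (n = 4) and the 30, 60 and 120 min libraries its late group (n = 3). The label of the tps1 fructose 0 min library carries an unexplained mark, "trd". The kind of tps1 mutation is not given beyond that name. No course had a second culture, so the p-values treat serial samples as replicates and describe the spread between these libraries.

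Snf3 and Rgt2 are plasma membrane proteins related to hexose transporters that act as receptors for extracellular glucose, Snf3 with the higher affinity. Glucose binding leads, through the Yck casein kinases and the SCF-Grr1 ubiquitin ligase, to loss of the paired corepressors Mth1 and Std1, and without them Rgt1 no longer represses the HXT hexose transporter genes. A second route runs through the Snf1 kinase: when glucose is plentiful, Mig1 is dephosphorylated, enters the nucleus and represses genes for the use of other carbon sources. Mig2 and Mig3 are related zinc finger repressors. The 2 routes are known to be wired together, since Rgt1 and the Mig proteins act on genes for other members of the same network.

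To show where the regulators could act on their own genes, the 1000 bases upstream of each coding sequence were searched on both strands for an Rgt1-type motif, CGGANNA, and for Mig-type motifs, which were spelled CTGGGG or CCGGGG, with GTGGGG as another spelling and GCGGGG as the last. The stretches below carry clusters of matches, with every match and its reverse complement in capitals. They are RefSeq sequence of assembly R64, printed 5′ to 3′ on the strand of the gene. They cover chrIV:111255-111356 (SNF3, forward strand), chrIV:1016116-1016352 (MTH1, reverse), chrXV:417895-417960 (STD1, reverse), chrVII:95485-95658 (MIG2, forward) and chrV:212098-212301 (MIG3, reverse).
SNF3: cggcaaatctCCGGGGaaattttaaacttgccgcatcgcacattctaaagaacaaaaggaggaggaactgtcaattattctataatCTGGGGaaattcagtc
MTH1: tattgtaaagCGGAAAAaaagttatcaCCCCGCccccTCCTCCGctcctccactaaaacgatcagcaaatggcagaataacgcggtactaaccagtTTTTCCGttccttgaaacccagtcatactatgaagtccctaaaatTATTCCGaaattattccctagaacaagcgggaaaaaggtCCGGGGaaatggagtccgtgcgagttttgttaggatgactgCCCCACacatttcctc
STD1: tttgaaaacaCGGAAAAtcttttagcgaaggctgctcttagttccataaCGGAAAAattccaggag
MIG2: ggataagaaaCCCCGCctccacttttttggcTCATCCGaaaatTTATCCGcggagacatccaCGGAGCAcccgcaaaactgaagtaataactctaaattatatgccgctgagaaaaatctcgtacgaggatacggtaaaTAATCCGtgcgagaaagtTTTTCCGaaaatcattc
MIG3: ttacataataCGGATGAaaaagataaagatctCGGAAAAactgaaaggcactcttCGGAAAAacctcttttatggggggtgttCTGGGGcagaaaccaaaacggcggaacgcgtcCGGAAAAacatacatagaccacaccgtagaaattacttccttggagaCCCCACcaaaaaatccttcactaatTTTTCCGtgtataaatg

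The SNF3 stretch held both Mig-type matches of that gene, at positions -315 to -310 and -239 to -234 from the start of the coding sequence, and no Rgt1-type match was found in the window. MTH1 had 4 Rgt1-type and 3 Mig-type matches, all in the stretch shown. STD1 and RGT1 each had 3 Rgt1-type matches and no Mig-type match, and in RGT1 a pair of the matches overlapped. MIG2 had 7 Rgt1-type and 2 Mig-type matches, MIG3 had 5 and 3, and MIG1 had 3 and 6. RGT2 had neither. Among 6015 protein-coding genes with windows of the same length, 66.4% had at least 1 Rgt1-type match, 11.1% at least 3, 3.47% at least 4, 1.25% at least 5 and 0.116% at least 7. At least 1 Mig-type match was present in 41.8%, at least 2 in 12%, at least 3 in 2.89% and at least 6 in 0.116%. A match is a description of the letters and not a measured binding site, and the window reaches beyond the intergenic region for SNF3, STD1, RGT1, MIG1 and MIG3, whose nearest upstream gene lies 550, 948, 728, 151 and 710 bases away. Of the MIG1 matches, only the Mig-type match at -138 to -133 lay within its intergenic region.

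**Figure D1:**
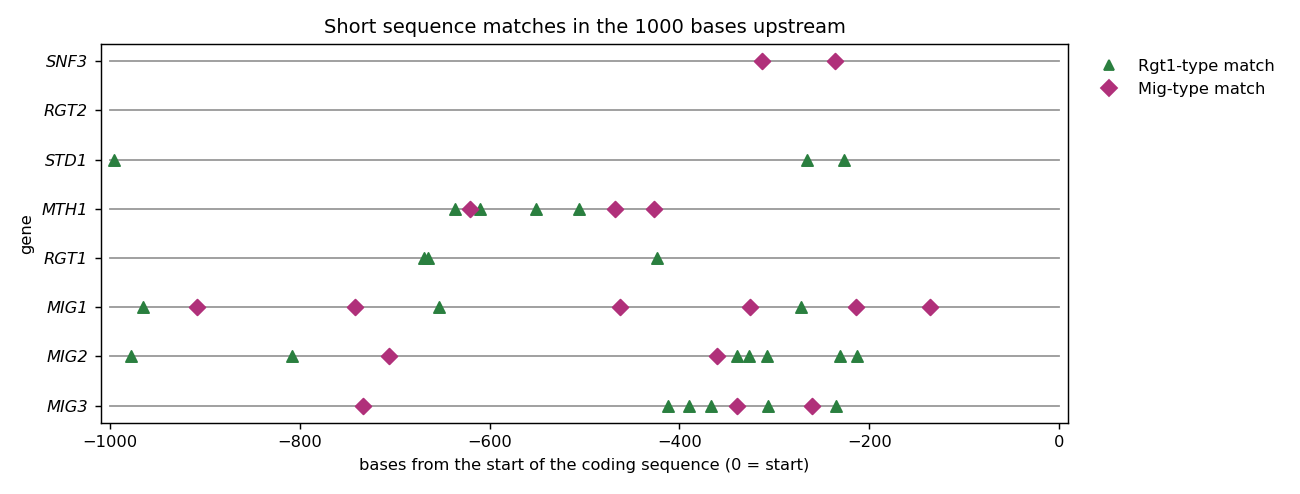
Positions of Rgt1-type matches (triangles) and Mig-type matches (diamonds) in the 1000 bases before the start of each coding sequence, with the distance from the start in bases on the horizontal axis and 1 gene per line. MIG2 carries 7 Rgt1-type matches, MIG1 carries 6 Mig-type matches, and RGT2 has none of either kind. The nearest gene upstream of MIG1 lies 151 bases away, and only the MIG1 match at -138 to -133 is closer than that.

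On chromosome IV lie SNF3 (chrIV:111580-114234), RGT2 (chrIV:213351-215642) and MTH1 (chrIV:1014401-1015702). STD1 is at chrXV:416347-417681, RGT1 at chrXI:365605-369117, MIG1 at chrVII:431548-433062, MIG2 at chrVII:95858-97006 and MIG3 at chrV:210692-211876. None of the 8 overlaps another annotated gene, and no 50-base stretch of their coding sequences occurs elsewhere in the genome. Libraries held an estimated 3.96 to 9.76 M fragments (median 7.62, M standing for the SI prefix mega), read from the spacing of the lowest values, which fell within 0.1 of whole fragments for 88.2% of them. The thinnest members were STD1, with 1 to 255 estimated fragments per library (median 37.5), and MIG3, with 12 to 159 (median 33.5). As a check of the labels, TPS1 ranged from 43.2 to 326 FPKM in the 16 WT libraries and from 0 to 1.18 FPKM in the 16 tps1 libraries. In these bulk samples a smaller share of cells holding a transcript and less of that transcript per cell cannot be told apart.

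In galactose no transcript of the 8 differed between strains past the threshold. The corepressor gene MTH1 was the most abundant, at 68.4 and 88.8 FPKM in WT and 93.2 and 131 FPKM in tps1. MIG1 followed at 50.9 and 52.3 FPKM in WT and 50.5 and 58.3 FPKM in tps1. RGT2, RGT1, MIG2 and SNF3 lay between 12.7 and 22.5 FPKM in all 4 libraries. STD1 and MIG3 were the lowest, between 2.30 and 4.44 FPKM, and their ranges overlapped in both strains. FPKM is a level per length, so these levels can be set side by side. None of the 8 members was called between strains in galactose, where 0.129% of 6203 tested genes were called and 729 genes had an unadjusted p under 0.05. A call here and below means an adjusted p under 0.05 and at least a 2-fold difference in limma on log2(FPKM + 1), a scale that understates changes of low genes. The differences were between -0.33 (MIG2) and 0.50 (MTH1, SE 0.22, adjusted p = 0.47).

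**Figure D2:**
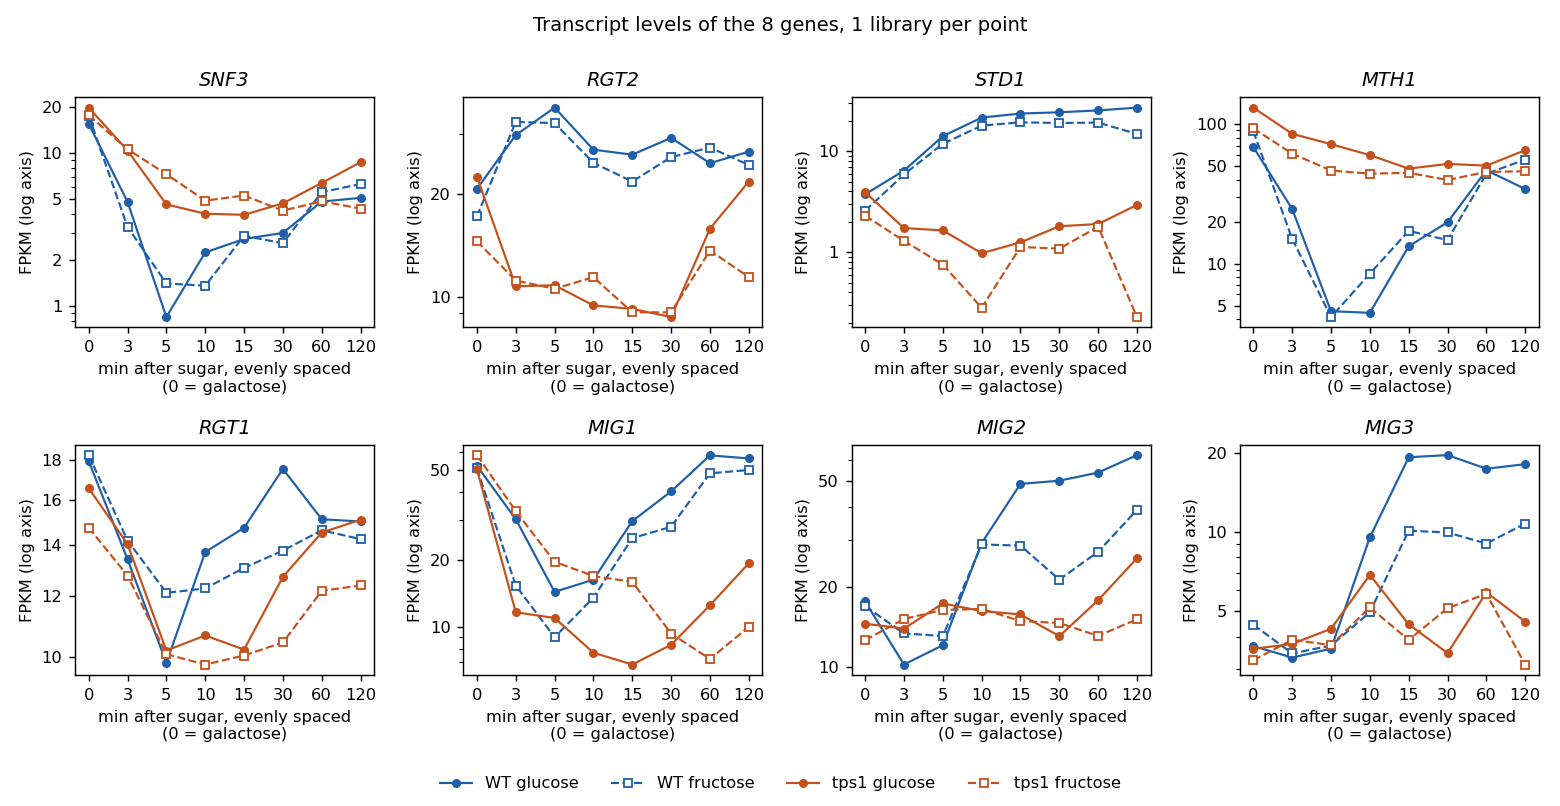
Level of each gene in FPKM on a log axis against minutes after sugar addition, with times evenly spaced and not to scale, 0 min being galactose. Each point is 1 library, WT is blue, tps1 is orange, glucose has filled circles and fructose open squares. STD1 climbs to 14.9 to 27.1 FPKM in late WT libraries and stays at or under 2.94 FPKM in tps1 after sugar.

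The high-affinity receptor gene SNF3 fell in both strains, early and late. In WT with glucose it stood at 15.7, 4.82, 0.851, 2.25, 2.76, 3.02, 4.84 and 5.13 FPKM at 0, 3, 5, 10, 15, 30, 60 and 120 min. In WT with fructose the same times gave 17.7, 3.30, 1.41, 1.36, 2.90, 2.59, 5.58 and 6.31 FPKM. Every WT library after sugar was below both galactose libraries, and the 5 or 10 min libraries were the lowest. The tps1 values were 20.0, 10.5, 4.65, 4.03, 3.97, 4.72, 6.42 and 8.76 FPKM with glucose. With fructose tps1 had 17.8, 10.7, 7.32, 4.92, 5.31, 4.23, 4.87 and 4.36 FPKM. The tps1 libraries after sugar also all lay below the galactose range, and their 3 min values were 10.5 and 10.7 FPKM against 4.82 and 3.30 FPKM in WT.

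Against galactose, SNF3 fell by 2.38 ± 0.39 (SE, log2 scale) in the WT glucose early group (adjusted p = 3.36e-04) and by 2.50 ± 0.39 in the fructose early group (adjusted p = 1.69e-04). It remained lower late, by -1.75 ± 0.41 with glucose (adjusted p = 0.0171) and -1.66 ± 0.41 with fructose (adjusted p = 0.0134). In tps1 it was called lower in all 4 groups, with differences of -1.65 ± 0.39 and -1.41 ± 0.41 (glucose early and late) and -1.36 ± 0.39 and -1.86 ± 0.41 (fructose early and late). The strains differed in the fructose early group, where tps1 was 1.31 ± 0.22 higher (adjusted p = 4.95e-04), while the glucose early difference of 0.91 ± 0.22 was under 2-fold (adjusted p = 0.00331). With equal FPKM sums the tps1 differences from galactose were larger, at -2.13 and -2.11 for glucose early and late and -1.81 and -2.65 for fructose early and late. With a pseudocount of 5 the fructose early strain difference was 0.72, under 2-fold. SNF3 was higher in tps1 at 12 of 14 matched times, and the exceptions were 60 and 120 min with fructose. The WT late calls ended when either galactose library was left out (adjusted p between 0.121 and 0.204) or when the 30 min library was (0.1 with glucose, 0.0895 with fructose). In tps1, the glucose early call ended without either galactose library (0.0539 and 0.0782), as did the fructose early call, which also ended without the 10 or 15 min library (0.0555 to 0.166), and the glucose late call ended without the glucose course's 0 min library (0.0583).

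RGT2, the gene of the low-affinity receptor, lay above its galactose level in WT and mostly below it in tps1 after sugar. WT with glucose held 20.8, 29.8, 35.9, 27.0, 26.1, 29.3, 24.7 and 26.7 FPKM. WT with fructose held 17.2, 32.6, 32.3, 24.7, 21.8, 25.7, 27.4 and 24.4 FPKM. All 14 WT libraries after sugar were above both WT galactose libraries. In tps1 the glucose course gave 22.5, 10.8, 10.8, 9.46, 9.24, 8.74, 15.9 and 21.8 FPKM. The tps1 fructose course gave 14.6, 11.2, 10.6, 11.4, 9.03, 9.03, 13.7 and 11.4 FPKM. From 3 to 30 min every tps1 library was below both tps1 galactose libraries. The 60 and 120 min glucose libraries, at 15.9 and 21.8 FPKM, lay between the galactose libraries, below the 22.5 FPKM of their own course and above the 14.6 FPKM of the other.

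The WT differences from galactose, 0.43 to 0.62 on the log2 scale, were not called (adjusted p 0.0649 to 0.248), nor were the tps1 differences of -0.79 to -0.30, of which all but glucose late had an adjusted p under 0.05 but were under 2-fold. Between strains RGT2 was lower in tps1 at 14 of 14 matched times. The difference was -1.47 ± 0.17 for glucose early (adjusted p = 2.22e-05), -1.31 ± 0.17 for fructose early (adjusted p = 8.48e-05), -1.13 ± 0.19 for fructose late (adjusted p = 3.07e-04) and -0.84 ± 0.19 for glucose late, the last under 2-fold (adjusted p = 0.00215). The fructose late difference was under 2-fold without 30 min (-0.99) and with a pseudocount of 5 (-0.92). Scaling all libraries to equal FPKM sums brought RGT2 in tps1 to -1.29, -1.02, -1.20 and -1.49 for glucose early and late and fructose early and late, all called, and the glucose late strain difference to -1.33, also called.

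Of the paired corepressor genes, MTH1 fell early and STD1 rose in WT. In tps1 MTH1 lay below its galactose level without a call, and STD1 was called lower only with fructose. In WT with glucose MTH1 held 68.4, 24.6, 4.55, 4.43, 13.3, 19.8, 46.6 and 34.2 FPKM. With fructose it held 88.8, 15.0, 4.14, 8.46, 17.1, 14.7, 44.0 and 55.6 FPKM. The level passed through a trough at 5 to 10 min, at 4.14 to 8.46 FPKM, and had risen to 44.0 and 46.6 FPKM in the 60 min libraries. All 14 WT libraries after sugar lay below both WT galactose libraries. The tps1 mutant had 131, 85.0, 71.8, 59.9, 47.9, 51.8, 50.3 and 64.9 FPKM with glucose. With fructose it had 93.2, 61.3, 46.4, 44.1, 44.7, 39.7, 45.4 and 45.9 FPKM. No tps1 library went under 39.7 FPKM, and MTH1 was the highest of the 8 transcripts in all 4 tps1 groups after sugar, with no overlap with the next gene. All 14 tps1 libraries after sugar still lay below both tps1 galactose libraries.

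MTH1 was called lower in WT early, by -2.95 ± 0.52 with glucose (adjusted p = 8.45e-04) and -2.86 ± 0.52 with fructose (adjusted p = 0.00109), and was higher late than early by 1.66 ± 0.33 (adjusted p = 0.00248). The WT late differences from galactose, -1.27 ± 0.55 with glucose and -1.21 ± 0.55 with fructose, were not called (adjusted p = 0.172 and 0.15). The tps1 differences from galactose, -0.76 to -1.32, were not called either (adjusted p 0.0505 to 0.309). With equal FPKM sums, 3 of the 4 tps1 differences became calls, at -1.75 (glucose late), -1.65 (fructose early) and -2.22 (fructose late). At matched times tps1 exceeded WT early by 2.68 ± 0.38 with glucose (adjusted p = 9.88e-05) and by 2.19 ± 0.38 with fructose (adjusted p = 6.59e-04). The late strain differences were 0.79 ± 0.43 and 0.38 ± 0.43 and were not called. MTH1 was higher in tps1 at 13 of 14 matched times, with 120 min of fructose as the exception.

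STD1 in WT with glucose read 3.75, 6.44, 14.1, 21.6, 23.7, 24.4, 25.4 and 27.1 FPKM. With fructose the WT readings were 2.57, 5.90, 11.9, 18.0, 19.4, 19.1, 19.3 and 14.9 FPKM. Each WT library after sugar exceeded both WT galactose libraries. The tps1 mutant with glucose had 3.93, 1.73, 1.64, 0.975, 1.25, 1.81, 1.90 and 2.94 FPKM. With fructose it had 2.30, 1.29, 0.753, 0.281, 1.13, 1.08, 1.79 and 0.227 FPKM, the 10 and 120 min values resting on an estimated 2 and 1 fragments. All 14 tps1 libraries after sugar lay below all 14 WT libraries after sugar.

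STD1 rose in WT by 1.94 ± 0.40 early and 2.69 ± 0.43 late with glucose (adjusted p = 0.00267 and 5.87e-04), and by 1.73 ± 0.40 early and 2.18 ± 0.43 late with fructose (adjusted p = 0.00846 and 0.00445). In tps1 it fell with fructose by 1.15 ± 0.40 early and 1.07 ± 0.43 late (adjusted p = 0.0476 and 0.0412). The glucose differences of -0.76 and -0.34 were not called, the former becoming a call at -1.13 with equal FPKM sums. The tps1 baseline pools 0 min libraries of 3.93 FPKM (glucose course) and 2.3 FPKM (fructose course). These calls therefore do not show a fall particular to fructose. The strain difference was called in all 4 groups, at -2.73 ± 0.34 (adjusted p = 4.16e-05) and -3.07 ± 0.40 (2.78e-05) for glucose early and late, and -2.90 ± 0.34 (4.25e-05) and -3.28 ± 0.40 (3.18e-05) for fructose early and late. STD1 was lower in tps1 at 14 of 14 matched times. Leaving out either galactose library ended both WT fructose calls (adjusted p 0.0515 to 0.124) and both tps1 fructose calls (0.054 to 0.364), and the WT glucose early call ended without the fructose course's 0 min library (0.0541). The tps1 fructose calls also ended with a pseudocount of 5 (0.212 and 0.22). The early call ended without the 5, 10 or 15 min library (0.0721 to 0.129) and the late call without 30 or 120 min (0.0553 and 0.188).

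Within a library a ratio of 2 transcripts does not depend on how libraries were scaled. MTH1 over STD1 was 18.2 and 34.5 in WT galactose and 33.4 and 40.5 in tps1 galactose. After sugar it ranged from 0.205 to 3.82 in the 14 WT libraries (median 0.847) and from 22.1 to 202 in the 14 tps1 libraries (median 41.7), without overlap. The highest values, 157 and 202 at 10 and 120 min of fructose, rest on an estimated 2 and 1 fragments of STD1. The next highest was 61.6. RGT2 over SNF3 was 0.974 and 1.33 in WT galactose and 0.818 and 1.13 in tps1 galactose, and after sugar 3.87 to 42.2 in WT (median 9.59) and 1.03 to 2.81 in tps1 (median 2.33), also without overlap. MIG1 over MIG2 went from 2.96 and 3.00 in WT galactose to 0.467 to 2.95 after sugar. In tps1 it went from 3.46 and 4.61 to 0.431 to 2.16, so the strains overlapped for this pair.

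**Figure D3:**
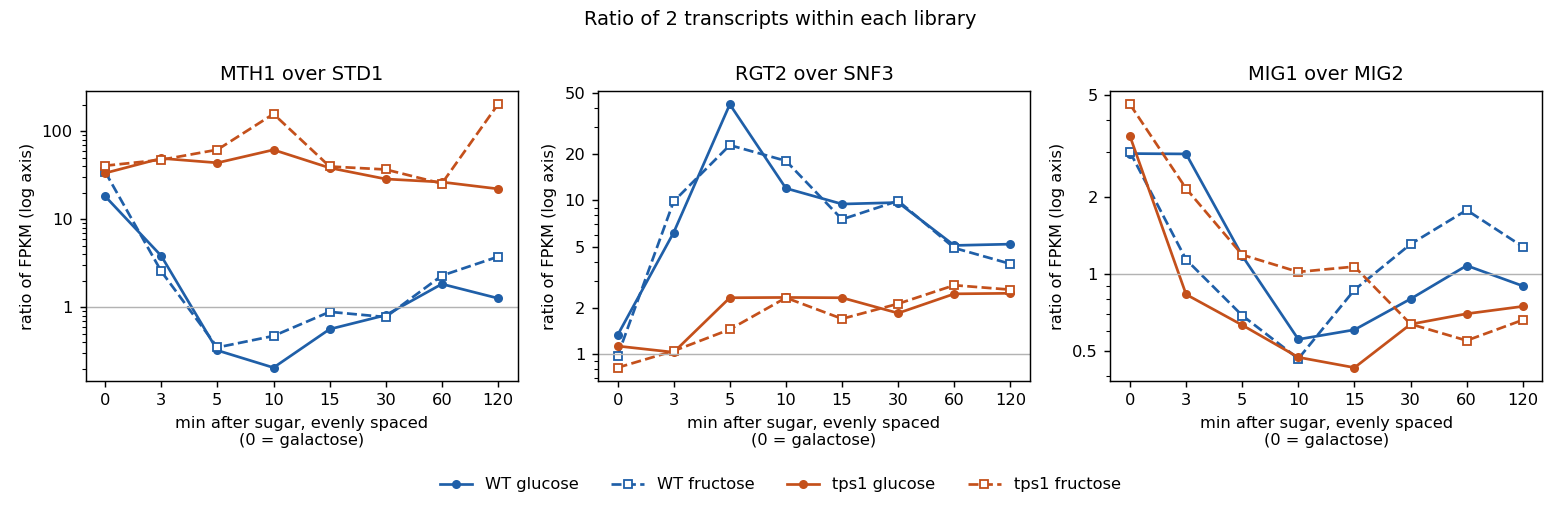
Ratio of the FPKM of 2 transcripts within each library, on a log axis, against minutes after sugar addition with times evenly spaced (0 min is galactose); each point is 1 library, blue for WT and orange for tps1. After sugar the MTH1 over STD1 ratios of WT end at 3.82 and those of tps1 begin at 22.1.

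RGT1, the gene of the HXT repressor, varied least. Its 32 values lay between 9.78 and 18.3 FPKM. Each library after sugar lay below the WT galactose libraries in WT, at 9.83 to 17.6 FPKM against 18.0 and 18.3 FPKM. The early differences, -0.45 to -0.52 on the log2 scale, had adjusted p values of 0.0135 to 0.0316 but were under 2-fold, and no strain difference was called (-0.26 to -0.16). With equal FPKM sums 1 difference passed, tps1 fructose late at -1.24.

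MIG1, which encodes the main glucose repressor, fell early in WT and was not called late, and fell early and late in tps1. WT with glucose had 52.3, 30.3, 14.3, 16.3, 29.6, 40.2, 58.2 and 56.4 FPKM. WT with fructose had 50.9, 15.3, 9.03, 13.5, 24.9, 28.0, 48.4 and 50.1 FPKM. The lowest WT libraries were those at 5 min, and by 60 min both courses were near the galactose level. The tps1 glucose course had 50.5, 11.7, 11, 7.70, 6.82, 8.34, 12.5 and 19.2 FPKM. The tps1 fructose course had 58.3, 32.9, 19.5, 16.9, 15.9, 9.37, 7.22 and 10.0 FPKM. The fructose course of tps1 declined more slowly, with its lowest library at 60 min against 15 min for glucose.

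In WT, MIG1 was called lower early, by -1.23 ± 0.35 with glucose (adjusted p = 0.0194) and -1.74 ± 0.35 with fructose (adjusted p = 0.00323), and not late (-0.02 and -0.33). It was higher late than early by 1.31 ± 0.22 (adjusted p = 5.45e-04). In tps1 it was lower in all 4 groups, by -2.45 ± 0.35 (adjusted p = 1.13e-04) and -2.01 ± 0.37 (1.41e-04) for glucose early and late, and by -1.37 ± 0.35 (0.0111) and -2.50 ± 0.37 (1.57e-05) for fructose early and late. The strains differed late, by -1.92 ± 0.32 with glucose (adjusted p = 1.85e-04) and -2.09 ± 0.32 with fructose (1.33e-04), and early with glucose, by -1.16 ± 0.28 (0.00334), but not early with fructose (0.44 ± 0.28, adjusted p = 0.212). With equal FPKM sums the tps1 differences from galactose were -2.96 and -2.75 for glucose early and late and -1.85 and -3.34 for fructose early and late. MIG1 was lower in tps1 at 11 of 14 matched times, the exceptions being 3, 5 and 10 min of fructose. The WT early calls and the tps1 fructose early call ended without either galactose library (adjusted p 0.0553 to 0.162), and the WT glucose early call also without the 5 or 10 min library (0.0592 and 0.0671). The glucose early strain difference was under 2-fold without 15 min (-0.88) and with a pseudocount of 5 (-0.91).

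MIG2 and MIG3 rose in WT late after glucose and were not called elsewhere against galactose. MIG2 in WT with glucose had 17.7, 10.2, 12.1, 29.3, 48.9, 50.3, 53.9 and 62.7 FPKM. With fructose WT had 17.0, 13.4, 13.1, 28.9, 28.7, 21.4, 27.2 and 39.1 FPKM. The 3 and 5 min libraries lay below the galactose range and all later WT libraries above it. In tps1 MIG2 stood at 13.1 to 25.7 FPKM after glucose, the highest at 120 min, and at 13.1 to 16.6 FPKM after fructose, against 12.7 and 14.6 FPKM in galactose. MIG3 in WT with glucose had 3.68, 3.33, 3.60, 9.54, 19.2, 19.6, 17.4 and 18.1 FPKM. With fructose WT had 4.44, 3.45, 3.70, 4.95, 10.1, 9.96, 9.04 and 10.8 FPKM. In tps1 MIG3 lay between 3.13 and 6.87 FPKM in the 14 libraries after sugar, against 3.25 and 3.59 FPKM in galactose.

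With glucose late, WT MIG2 was 1.62 ± 0.42 higher than in galactose (adjusted p = 0.0349) and MIG3 1.94 ± 0.43 higher (adjusted p = 0.0117). With fructose late the differences were 0.68 ± 0.42 and 1.11 ± 0.43 and were not called (adjusted p = 0.298 and 0.0923). No difference from galactose was called in tps1 for either gene (0.07 to 0.40). Between strains with glucose late, MIG2 was lower in tps1 by -1.55 ± 0.34 (adjusted p = 0.00138, and 0.0966 relative to galactose) and MIG3 by -1.80 ± 0.35 (adjusted p = 6.57e-04). With fructose late the differences of -0.94 ± 0.34 and -0.97 ± 0.35 were under 2-fold, and with equal FPKM sums they were -1.46 and -1.41 and called. The WT glucose late call of MIG2 ended without any 1 of the 5 libraries behind it (adjusted p 0.0576 to 0.275), and that of MIG3 without either galactose library or the 30 min library (0.0525 to 0.219). MIG3 was also higher late than early in WT (1.05 ± 0.26, adjusted p = 0.0144), which was under 2-fold without 3 or 5 min of either course (0.90 to 0.99) and with a pseudocount of 5 (0.71).

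**Figure D4:**
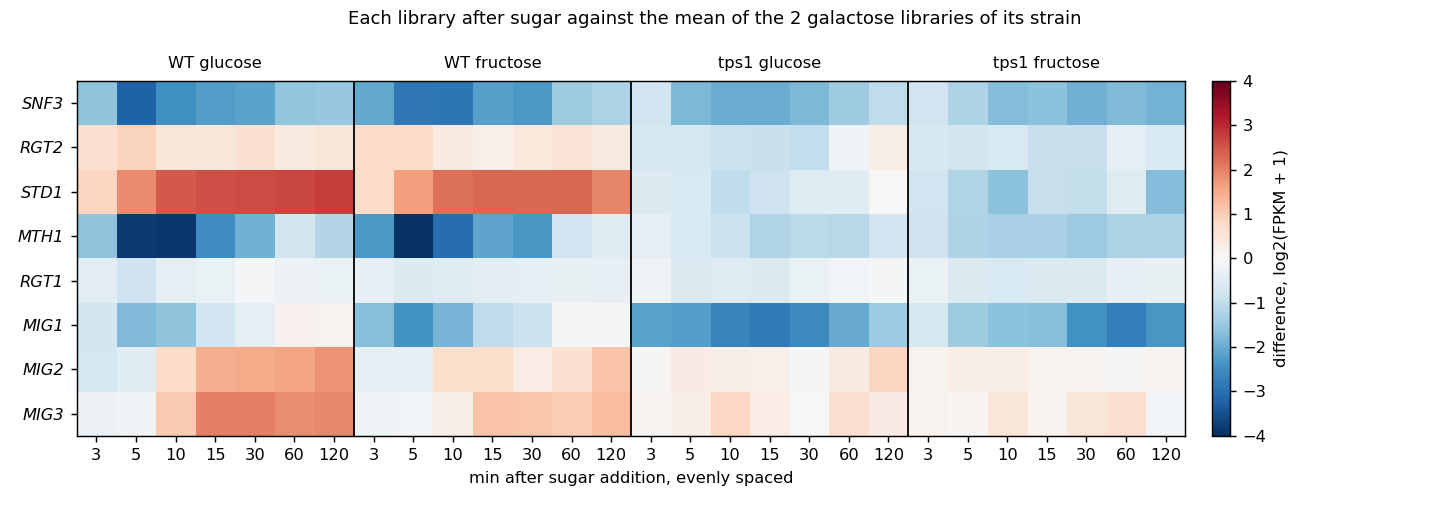
Difference on the log2(FPKM + 1) scale between each library after sugar and the mean of the 2 galactose libraries of its strain, red for higher and blue for lower, with genes in rows and times in columns (evenly spaced) for the 4 courses. STD1, MIG2 and MIG3 turn red in WT, the trough of MTH1 lies at 5 to 10 min in WT, and MIG1 stays blue in both tps1 courses.

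Read against all genes, the share of the 8 members called differed from course to course. In WT 4 members were called with glucose early (background 7.04% of genes), 4 with glucose late (1.74%), 4 with fructose early (5.06%) and 2 with fructose late (3.97%). In tps1 the counts were 2 with glucose early (3.68%), 2 with glucose late (15.3%), 3 with fructose early (3.01%) and 3 with fructose late (16.3%). These comparisons share the galactose libraries of a strain. Over the members the median difference was -0.11, 0.23, -0.15 and 0.05 in the 4 WT groups in that order and -0.76, -0.32, -0.94 and -0.86 in the tps1 groups, against medians of all genes between -0.03 and 0.02. The tps1 libraries had larger FPKM sums after sugar (1.51 to 2.58 M) than in galactose (1.19 to 1.3 M), while those of WT were 1.32 to 1.6 M. With equal sums the median of all genes moved to between -0.87 and -0.46 in tps1 and between -0.28 and -0.14 in WT. Since equal sums lower nearly all tps1 values alike, calls that appear only then are not read as results about the members. The part of these sums in the results was not tested otherwise. No difference called as deposited changed direction or lost its call under equal sums.

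Already at 3 min SNF3 and MTH1 were lower in WT. The comparison sets the 3 min libraries of both sugars against the 2 galactose libraries, 2 against 2. SNF3, at 4.82 and 3.30 FPKM, was down by -1.82 ± 0.26 (adjusted p = 2.33e-04) and MTH1, at 24.6 and 15.0 FPKM, by -1.96 ± 0.31 (adjusted p = 5.55e-04). These 2 members were called where 1.4% of genes were. In tps1 none of the 8 was called at 3 min (0.161% of genes, with 666 at an unadjusted p under 0.05), and SNF3 and MTH1 stood at -0.78 ± 0.26 and -0.61 ± 0.31. The difference between strains was not tested at 3 min alone.

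From the early to the late group, over both sugars, 3 members rose in WT (background 1.05%), namely MTH1, MIG1 and MIG3, with values as given above. MIG2 had a difference of 0.94 ± 0.25 (adjusted p = 0.022), under 2-fold. In tps1 no member was called (1.43% of genes, with 2799 at an unadjusted p under 0.05), and the differences were between -0.34 (MIG1) and 0.29 (RGT2).

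Glucose and fructose were compared over the 7 matched times of each strain. No member was called in WT (0.306% of genes, with 1118 at an unadjusted p under 0.05) or in tps1 (0.693%, with 2265). MIG3 in WT was 0.59 ± 0.14 higher with glucose (adjusted p = 0.0303) and STD1 in tps1 0.53 ± 0.16 higher (adjusted p = 0.0255), both under 2-fold. STD1 was higher with glucose at 7 of 7 times in each strain, MIG1 at 7 of 7 in WT, and MTH1 and RGT1 at 7 of 7 in tps1. Before any sugar was added, the 0 min library of the glucose course already exceeded that of the fructose course for each of these, by 0.58 (STD1), 0.49 (MTH1) and 0.16 (RGT1) on the log2 scale in tps1 and by 0.41 (STD1) and 0.04 (MIG1) in WT. In tps1 these gaps are as large as the differences after sugar, which were 0.53, 0.38 and 0.15. For STD1 in WT the gap of 0.41 also exceeded the difference after sugar, 0.35 ± 0.16 (adjusted p = 0.264). In these cases a difference between sugars and one between the courses cannot be told apart. For MIG3 in WT the 0 min gap was -0.22, opposite to the difference after glucose. For MIG2 in WT the difference was 0.45 ± 0.16 (adjusted p = 0.148). With a pseudocount of 0.1, 1 member was called in tps1.

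Between strains at matched times, 4 members were called with glucose early (background 13.2% of genes), 4 with glucose late (21.6%), 4 with fructose early (9.03%) and 3 with fructose late (19.4%). STD1 was lower in tps1 in all 4 groups, RGT2 in 3 and MIG1 in 3, while MTH1 was higher in both early groups. Because the strains also differed slightly in galactose, the difference was taken a further time relative to galactose, which tests whether the response itself differed. Of all genes, 7.8% and 16.4% were called this way with glucose early and late and 1.98% and 15% with fructose early and late. STD1 responded differently in all 4 groups, at -2.70 ± 0.59, -3.04 ± 0.63, -2.87 ± 0.59 and -3.25 ± 0.63 for glucose early and late and fructose early and late (adjusted p = 0.0176, 0.00452, 0.0228 and 0.00629). RGT2 did so with glucose early (-1.41 ± 0.29, adjusted p = 0.0141), fructose early (-1.25 ± 0.29, 0.0398) and fructose late (-1.07 ± 0.31, 0.024). MIG1 did so late with glucose (-2.0 ± 0.50, adjusted p = 0.0112) and with fructose (-2.17 ± 0.50, 0.0108), and MIG3 with glucose late (-1.61 ± 0.56, 0.0436). For MTH1 the value was 2.18 ± 0.65 with glucose early (adjusted p = 0.045) and 1.69 ± 0.65 with fructose early (0.142), and for SNF3 with fructose early it was 1.14 ± 0.37 (0.105). For MIG1 with glucose early it was -1.23 ± 0.48 (adjusted p = 0.0934) and for MIG2 with glucose late -1.22 ± 0.53 (0.0966), so the strain differences of these 4 combinations (MTH1 and SNF3 with fructose early, MIG1 with glucose early, MIG2 with glucose late) were called only before the galactose level was taken off. Before that step these 4 were 2.19 ± 0.38, 1.31 ± 0.22, -1.16 ± 0.28 and -1.55 ± 0.34, in that order. Their SEs were smaller then, and for MIG1 the estimate itself did not shrink. Relative to galactose, the MTH1 glucose early and RGT2 fructose early calls were absent when the prior variance followed the mean difference and not the mean level (adjusted p = 0.0528 and 0.0573). The galactose level taken off was pooled over both courses of a strain. For MTH1 the strain difference at 0 min was 0.93 in the glucose course and 0.07 in the fructose course. The MTH1 values relative to galactose therefore do not show a different response particular to glucose.

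**Figure D5:**
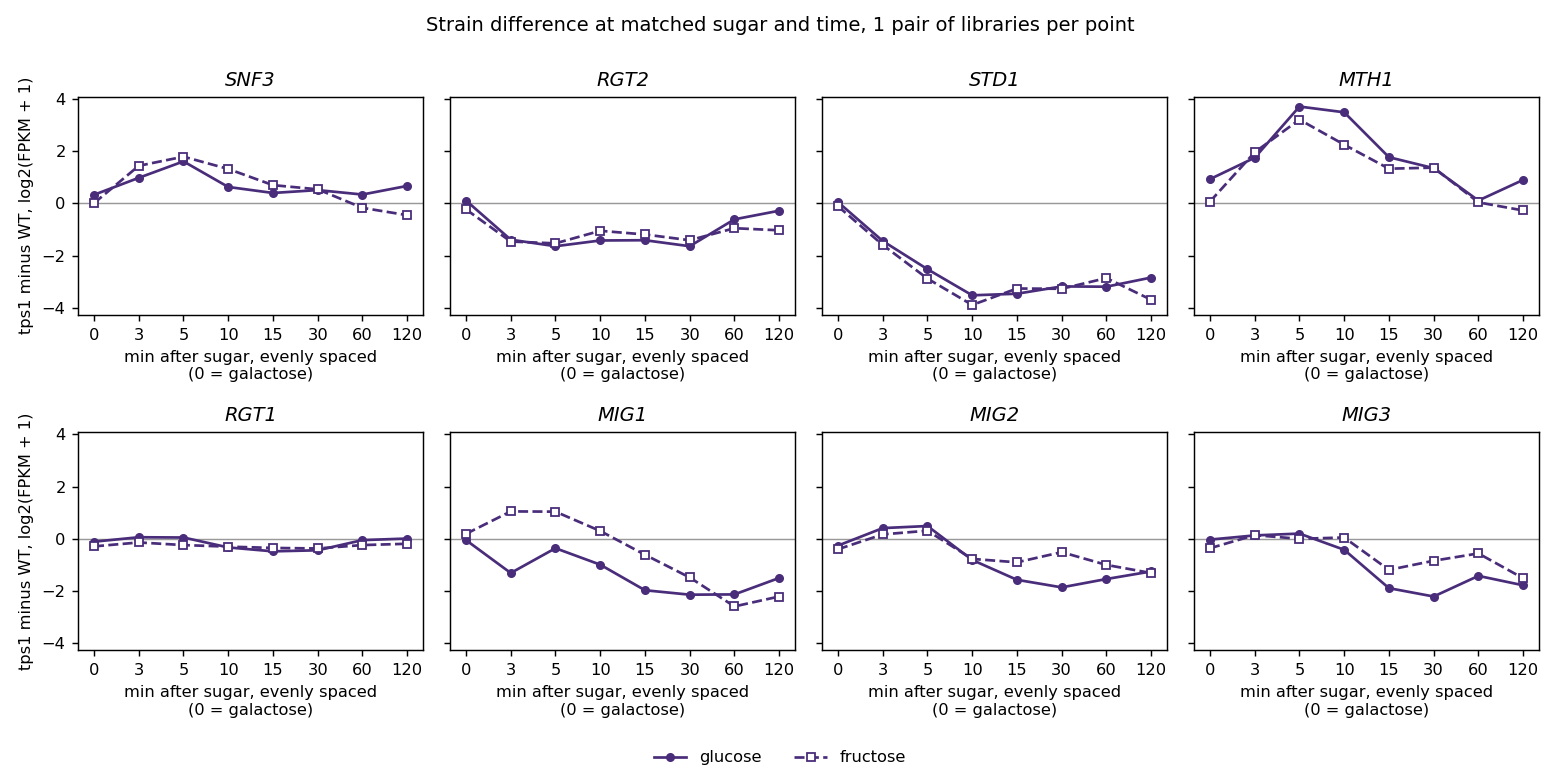
Difference between tps1 and WT on the log2(FPKM + 1) scale at the same sugar and time, against minutes after sugar addition with times evenly spaced (0 min is galactose); each point is 1 pair of libraries, filled circles for glucose and open squares for fructose. STD1 lies below 0 at all 14 times after sugar, and MTH1 peaks at 3.71 with glucose and 3.21 with fructose, both at 5 min.

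The downstream genes of the pathways were described from lists of genes with a known role. As background, the shares of all genes called against galactose in WT were 7.04%, 1.74%, 5.06% and 3.97% for glucose early and late and fructose early and late. In tps1 they were 3.68%, 15.3%, 3.01% and 16.3%, and between strains 13.2%, 21.6%, 9.03% and 19.4%, in that order. From early to late in WT the share was 1.05%. Of 4 hexose transporter genes known as Rgt1 targets (HXT1 to HXT4), WT had 1 higher with glucose early, 3 with glucose late, none with fructose early and 4 with fructose late, and tps1 had 1, HXT2 with glucose late (1.47 ± 0.54, adjusted p = 0.0296). HXT1, a low-affinity transporter gene, averaged 5.41 ± 0.735 FPKM (SD, n = 2) in WT galactose and 434 ± 63.2 FPKM (SD, n = 3) in WT glucose late, against 6.43 ± 2.18 FPKM (SD, n = 3) in tps1 glucose late. Of these 4 genes tps1 had 2 lower than WT in each early group and 4 in each late group, with medians of -1.33, -3.21, -1.5 and -3.97 for glucose early and late and fructose early and late. From early to late 3 of the 4 rose in WT, among them HXT3 by 3.32 ± 0.49 (adjusted p = 1.00e-04).

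Of 12 genes known as Mig1 targets, 8 fell in WT with glucose early, 4 with glucose late, 8 with fructose early and 7 with fructose late, and none rose. Of 6203 tested genes, 196, 80, 164 and 152 fell in these WT groups, in that order. In the tps1 groups 25, 464, 40 and 465 of the 6203 genes rose. Against WT 319, 683, 225 and 598 of them were higher in tps1. HAP4 and HXK1 were already lower in WT at 3 min (-2.65 ± 0.28 and -2.07 ± 0.40), where 1.4% of all genes were called. In tps1, HAP4, a subunit gene of a respiratory activator, fell in all 4 groups (-1.65, -1.59, -1.48 and -2.08). It was the only member of the list that fell there, while 1 rose with glucose early, 3 with glucose late, none with fructose early and 2 with fructose late, among them SUC2, the invertase gene, with glucose early (1.08 ± 0.33, adjusted p = 0.0226). Against WT, 8, 9, 9 and 9 of the 12 were higher in tps1 for glucose early and late and fructose early and late, and none was lower. SUC2 averaged 267 ± 28.8 FPKM (SD, n = 4) in tps1 glucose early and 40.2 ± 17.1 FPKM (SD, n = 4) in WT.

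The 2 corepressor subunit genes used by Rgt1 and Mig1 are CYC8 and TUP1. CYC8 was lower in late tps1, by -1.19 ± 0.23 with glucose and -1.25 ± 0.23 with fructose (adjusted p = 1.80e-04 and 1.11e-04), and TUP1 was not called. Among 12 genes of the Snf1 kinase, its activating kinases and the Glc7 phosphatase, REG2, a Glc7 regulatory subunit gene, fell in all 4 WT groups (-1.46 to -1.82), and HXK2, the hexokinase 2 gene, in both early groups (-1.15 and -1.26). In tps1 the list had 1 call against galactose, SNF1 with glucose late (-1.51 ± 0.21, adjusted p = 5.68e-06). Against WT, the list had 2, 1, 2 and 1 genes higher in tps1 and 2, 1, 2 and 2 lower for glucose early and late and fructose early and late. Of all genes 13.2%, 21.6%, 9.03% and 19.4% were called in these comparisons, so the late counts of the list are near that background. REG2 was higher in all 4 groups (2.03 to 2.84) and HXK2 in both early groups (1.39 and 1.37). ELM1, the gene of a Snf1-activating kinase, averaged 7.17 ± 1.99 FPKM (SD, n = 4) in tps1 glucose early and 17.9 ± 1.82 FPKM (SD, n = 4) in WT, a difference of -1.24 ± 0.16 (adjusted p = 4.43e-05). ELM1 was also lower with fructose late (-1.23), TOS3, the gene of another such kinase, with fructose early and late (-1.25 and -1.02), and SNF1 with glucose late (-1.24). Of 7 genes of the casein kinase and SCF-Grr1 step 6 were tested, because the listed symbol RBX1 matched no gene name. In tps1 glucose late SKP1 rose (1.09 ± 0.16) and YCK2 fell (-1.16 ± 0.15). No other course against galactose had a call on that list. In tps1 glucose late 15.3% of all genes were called.

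As a description over the 32 libraries, which share strains, times and sugars, MIG2 and MIG3 were close to each other (Pearson r 0.91) and to HXT3, with r 0.916 for MIG2 and 0.885 for MIG3. STD1 was closest to YLR108C (0.965) and PSK2 (0.957), and RGT2 to GIP3 (0.956) and TPO1 (0.95). MTH1 was closest to MAL11 (0.971) and RGI1 (0.948), and SNF3 to GLG1 and ATH1 (0.922 each). MIG1 was closest to MSN4 (0.917) and IML2 (0.915), and RGT1 to ECM30 and KAR9 (0.875 each), the lowest of the closest values. Next came RIM4 (0.918, SNF3), RRN6 (0.947, RGT2), PDR12 (0.943, STD1), MAL31 (0.939, MTH1), INP1 (0.843, RGT1) and OCH1 (0.906, MIG1). HXT1 (0.851) and ARI1 (0.85) came next for MIG2, and ARI1 (0.878) and HXT1 (0.846) for MIG3. Genes are not independent replicates, so no p is given.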

How the data were processed

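Poly-A RNA was sequenced from 32 yeast libraries. The authors deposited 1 table of FPKM (fragments per kilobase and per mega fragments mapped) for 6717 genes. The submitters' processing notes name CASAVA 1.4, TopHat2, Cuffnorm and the sacCer3 genome. How libraries were scaled, and whether the stranded libraries were counted by strand, is not stated in the labels or notes. The 1 entry without an identifier was left out, and 6025 identifiers matched the R64 annotation.

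Differences were tested with limma 3.58.1 (R 4.3.3) on log2(FPKM + 1) for 6203 genes with a mean FPKM of at least 1, using limma's trend for the prior variance and adjusting p by Benjamini-Hochberg over every tested gene. Courses were set against both galactose libraries of the strain. Strain and sugar comparisons used differences at matched times, with the trend taken on the mean level; a first fit took it on the mean difference, was corrected after its results were seen because TPS1 then had an unusable error, and is kept as an alternative. The fit was tested on simulated data. Fragments per library were inferred from the steps between low values, and counting error limits STD1 and MIG3 most. Tables and figures used Python 3.11.15 with pandas 2.3.3, numpy 2.4.6 and matplotlib 3.10.9.

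Named genes were the 8 members, TPS1, up to 3 called genes with the largest difference per list and comparison, and the 3 most similar genes per member. The members and lists were chosen with earlier results of these data known. The alternatives changed the pseudocount to 0.1 or 5, dropped the filter or the trend, rescaled by median of ratios or to equal FPKM sums over genes of at least 300 bp, and used 1 galactose library as baseline, unmatched fits, strain differences relative to galactose, and each library or time left out.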

Additional observations from a re-analysis of the deposited data

Results flagged for a closer look

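In groups of 4 libraries, 1 library stood apart from the other 3 in 5 of the 32 combinations of gene and group checked, where chance would mark about 1 in 20 groups. These libraries are serial times of a course and not replicates of a state. SNF3 in tps1 glucose early was highest at 3 min, with 10.5 FPKM. MTH1 in tps1 fructose early was highest at 3 min, with 61.3 FPKM. RGT1 was highest at 3 min in both early tps1 groups, with 14.0 FPKM for glucose and 12.8 FPKM for fructose. MIG3 in tps1 fructose early was highest at 10 min, with 5.16 FPKM.

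The response relative to galactose differed between tps1 and WT, by limma's test of the difference itself, in 11 combinations on the log2(FPKM + 1) scale. Of all genes 7.8%, 16.4%, 1.98% and 15% were called this way for glucose early and late and fructose early and late. For STD1 the differences were -2.70 and -3.04 with glucose early and late and -2.87 and -3.25 with fructose early and late. For RGT2 they were -1.41 with glucose early, -1.25 with fructose early and -1.07 with fructose late. MIG1 differed by -2.0 with glucose late and -2.17 with fructose late. MIG3 differed by -1.61 with glucose late and MTH1 by 2.18 with glucose early. The galactose level was pooled over both courses, and the MTH1 strain difference at 0 min was 0.93 with glucose and 0.07 with fructose. With the trend on the mean difference, limma no longer called MTH1 with glucose early or RGT2 with fructose early (adjusted p = 0.0528 and 0.0573).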

How the results depend on the processing

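No called difference changed direction under any alternative run. All 44 calls of a member in a comparison held with a pseudocount of 0.1, no filter, median-of-ratios scaling, equal FPKM sums and no trend. A pseudocount of 5 ended 6. These settings kept both galactose libraries of a strain as the baseline. With a lone galactose library as baseline, from the same or the other course, most of the 24 calls against galactose checked this way ended. All 15 calls between strains held in unmatched fits and with the trend on the mean difference, an alternative chosen after seeing the data. Taken relative to galactose, 4 of these 15 ended (SNF3 and MTH1 with fructose early, MIG1 with glucose early, MIG2 with glucose late), and fructose early had 2 members called, down from 4.

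Equal FPKM sums raised the number of members called against galactose in tps1 to 4 with glucose early, 4 with glucose late, 5 with fructose early and 6 with fructose late, and between strains with fructose late to 5. All genes called rose too, from 228 to 906, 951 to 2261, 187 to 694, 1009 to 2566 and 1206 to 1740 in that order, so the added calls are not particular to the members. A pseudocount of 0.1 gave 1 call for glucose against fructose in tps1, from 0. With the 0 min library of the same course as the only baseline, the counts were 2 for WT glucose early, 1 for WT glucose late, 2 for WT fructose early, 0 for WT fructose late and 0 for tps1 fructose early. With that of the other course they were 1 for WT glucose late, 1 for WT fructose early, 0 for WT fructose late, and 1 each for tps1 glucose early, glucose late and fructose early. A lone baseline library is assumed to vary like the other groups, and for 3 min this alternative was not run. The counts with a lone baseline are not set against the share of all genes called. They therefore do not show whether the members lost more calls than other genes did. The cause of these changes was not tested.

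Leaving out 1 library or time gave these ranges of members called. In WT they were 2 to 4 for glucose early, 1 to 3 for glucose late, 2 to 4 for fructose early, 0 to 2 for fructose late and 2 to 4 for late against early. In tps1 they were 1 to 2, 1 to 2, 0 to 3 and 2 to 3 for glucose early and late and fructose early and late. Between strains glucose late had 4 to 5, and the other 3 groups kept counts of 4, 4 and 3 for glucose early, fructose early and fructose late. The members behind these counts were not always the same. The MIG1 call with glucose early and the RGT2 call with fructose late each ended in 1 setting. The 3 min comparison in WT kept 2, and strains in galactose, both sugar comparisons, and tps1 at 3 min and late against early kept 0. Depth limits STD1 in tps1, at 1 to 44 estimated fragments per library. Strain and sugar comparisons were paired by sampling time, with the unmatched fits as the alternative, and the labels give no replicate numbers to pair by.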
